A study of Homo sapiens with 8 samples.

Results

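The genes described here are the FOS and JUN families of the transcription factor AP-1, namely FOS, FOSB, FOSL1, FOSL2, JUN, JUNB and JUND, together with the immediate early genes EGR1, IER2 and IER3. They were taken by gene symbol, and all 10 were found among the 19158 genes of the deposited tables. RNA was measured in A549, an established epithelial line from a human lung adenocarcinoma, with wild-type genotype in the labels. There were 4 libraries of untreated cells and 4 of cells given 1 µM dexamethasone, a synthetic glucocorticoid, for 48 h. Each library came from its own well of a single line, the replicate numbers were 1, 3, 4 and 5 in both groups, and all libraries carried one batch label. The spread between wells includes deviations shared by same-numbered libraries, which correlated at 0.713 across genes for number 5.

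AP-1 is a dimer of basic leucine zipper proteins. JUN proteins can pair with each other, whereas FOS proteins need a JUN partner to bind DNA, so the RNA of both families bears on which dimers a cell can form. Immediate early genes are transcribed soon after a growth factor, serum or stress signal, from regulators that are already present, and most of their mRNAs are short-lived. The ligand-bound glucocorticoid receptor is known to restrain AP-1 by contact with it on DNA, and in lung epithelium AP-1 is linked to inflammatory, matrix-degrading and growth genes.

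Values were read as FPKM, fragments scaled to transcript length and to the fragments of the library, and are printed as deposited. They are described as counts but are not whole numbers, so the unit is an inference. On that reading levels can be compared between genes on a per-length scale. Changes are log2 fold changes of scaled log2(FPKM + 1), dexamethasone over untreated, which understate the change of low genes. A gene was called at a limma Benjamini-Hochberg adjusted p under 0.05 over the 12161 genes with at least 0.5 FPKM in at least 4 libraries. The sums of FPKM ran from 338989 to 373855 per library, and the steps between low values gave estimates of 24850000 to 28660000 fragments. FKBP5, a direct glucocorticoid-receptor target, was at 3.28 to 7.30 FPKM in untreated and 87.3 to 166 FPKM in dexamethasone libraries, so every library carried the response of its label. Untreated replicate 5 stood apart, with 10555 genes at 1 FPKM or more against 11290 to 11378 in the other untreated libraries, and a scaling factor of 0.825. The summed epithelial markers were at 1912 to 3459 FPKM in untreated and 2578 to 3312 FPKM in dexamethasone libraries, from KRT8 and KRT18 above all, while EPCAM was at 0.765 FPKM or less. Within this list KRT19 was at 131 to 200.4 FPKM in untreated and 43.97 to 64.2 FPKM in dexamethasone libraries, and CDH1 at 4.90 to 8.52 FPKM and 16.7 to 19.7 FPKM. The sum of 5 endothelial markers was at most 0.209 FPKM. Sums of 5 markers moved with treatment for fibroblasts, from 1.81 to 2.29 FPKM down to 0.598 to 0.779 FPKM, and for leukocytes, from 5.78 to 7.52 FPKM down to 3.07 to 3.75 FPKM. The fibroblast sum was carried by COL1A1, at 1.79 to 2.25 FPKM and 0.274 to 0.437 FPKM, while DCN was listed at 0 in the untreated libraries and at 0.178 to 0.355 FPKM in the dexamethasone ones. The leukocyte sum was carried by CD68, at 3.65 to 4.88 FPKM in untreated and 1.81 to 2.24 FPKM in dexamethasone libraries, and by CD14, at 2.01 to 3.14 FPKM and 1.19 to 1.56 FPKM. COL1A2, PTPRC and CD3E, defining genes of these types, were listed at 0 in every library. Mitochondrial transcripts took 1.74% to 6.04% of the FPKM sum in untreated and 2.55% to 9.44% in dexamethasone libraries. The part of these marker and mitochondrial shifts in the results was not tested. In bulk RNA, fewer expressing cells and less RNA per cell cannot be told apart.

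Dexamethasone shifted the AP-1 and immediate early genes in both directions. FOS, FOSL2 and JUNB rose, and FOSL1, JUN, JUND, IER2 and IER3 fell, while EGR1 and FOSB lay too low to be tested. All 8 tested members were thus called, 3 higher and 5 lower, where 26.7% of all tested genes were called, 12.8% higher and 13.8% lower. The members were chosen with earlier results of these data known. Their share called, their median and their lack of overlap are therefore no independent result. The median log2 fold change of the 8 was -0.53, against 0.02 over all tested genes. On the deposited values none of the 8 overlapped between groups, where 31.5% of tested genes did not, 12.3% higher and 19.2% lower. After scaling JUND overlapped and the other 7 did not, against 31.5% of tested genes, 15.1% higher and 16.4% lower. Without both libraries numbered 5, 8 of 8 were called, in a fit that called 45% of all tested genes. The calls of JUN, JUNB and JUND were the narrow ones in the reported fit, which did not pair replicate numbers. With a replicate block their limma adjusted p-values were 0.00716, 0.00320 and 0.00346, where 47.4% of all tested genes were called. The count of called members was 5 without untreated replicate 1 and also 5 without dexamethasone replicate 4, against 8. Those fits called 20.6% and 18.8% of all tested genes.

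**Figure D1:**
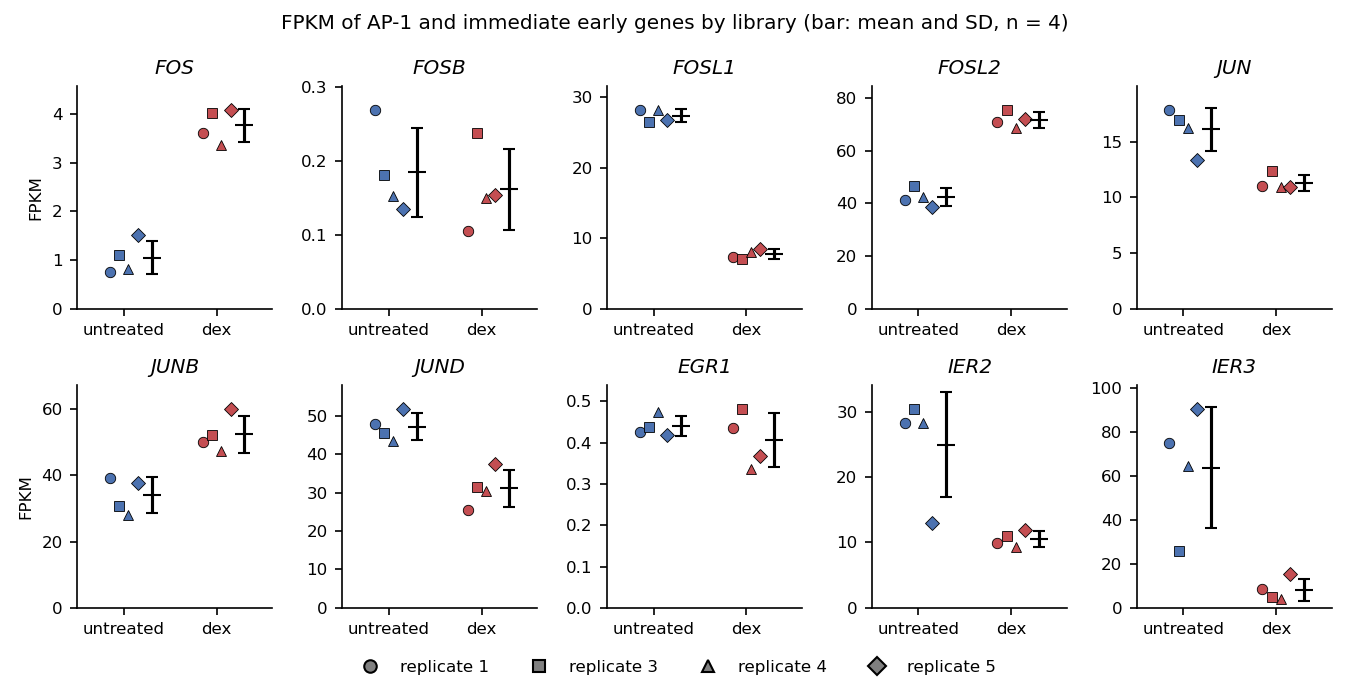
FPKM of each of the 10 genes (y axis, from 0, scale differing between panels) in the untreated and dexamethasone (dex) libraries. Points are libraries with the replicate number as the symbol, and bars give the mean and SD (n = 4). FOSL1 falls from 26.5 to 28.2 FPKM to 7.01 to 8.53 FPKM, and IER3 ranges from 25.7 to 90.6 FPKM in untreated and from 3.95 to 15.2 FPKM in dexamethasone libraries.

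**Figure D2:**
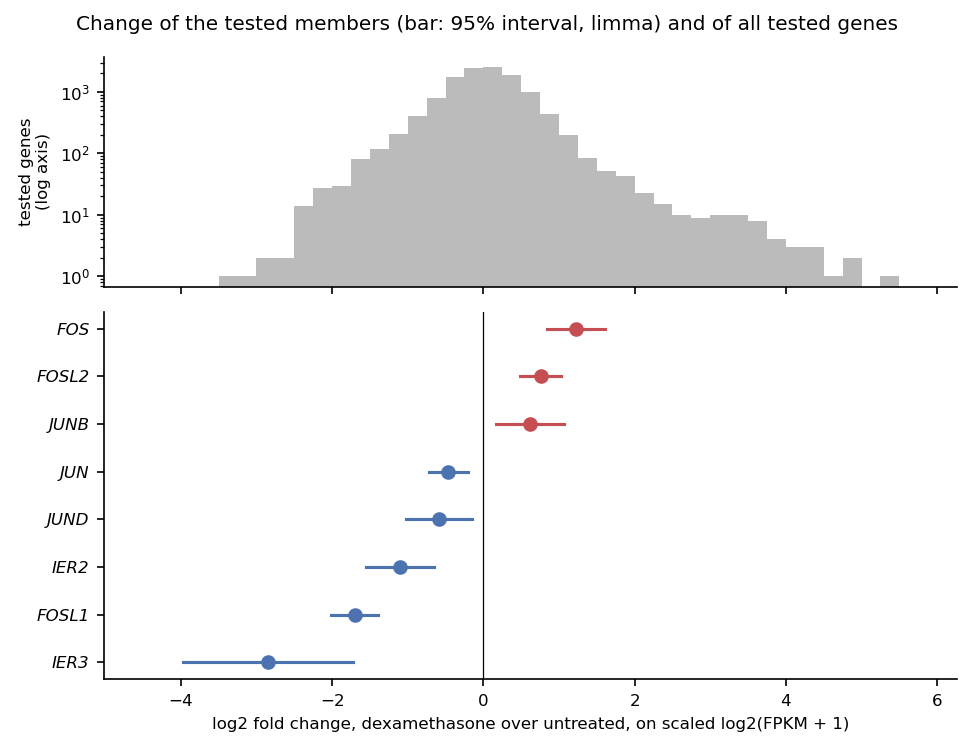
Log2 fold change (x axis, dexamethasone over untreated) of the 8 tested members with 95% intervals in the lower panel, and the number of all 12161 tested genes per bin in the upper panel on a log axis. FOS, FOSL2 and JUNB lie above 0 and the other 5 below it, from -0.46 for JUN to -2.84 for IER3.

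The FOS family was examined first. FOSL1 (Fra-1, ENSG00000175592, chromosome 11, 65890077 to 65900573, minus strand), which lacks the transactivation domain of FOS and is associated with invasive growth of carcinoma cells, was at 28.1, 26.5, 28.2 and 26.7 FPKM without dexamethasone (replicates 1, 3, 4 and 5). After dexamethasone it was at 7.36, 7.01, 7.99 and 8.53 FPKM. The groups were far apart. The level fell 3.54-fold on scaled values (limma log2 fold change -1.70, SE 0.140, adjusted p = 2.32e-05). Of the 12161 tested genes, 85 had a lower log2 fold change. Scaling widened the untreated values to 27.3, 24.2, 26.0 and 32.4, and replicate 5 became the highest. Its call held in all 19 other fits, with log2 fold changes of -1.81 to -1.47.

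FOSL2 (Fra-2, ENSG00000075426, chromosome 2, 28392448 to 28417312, plus strand), the closest relative of FOSL1, moved the other way. It was at 41.3, 46.7, 42.5 and 38.5 FPKM without dexamethasone (replicates 1, 3, 4 and 5) and at 70.8, 75.4, 68.4 and 71.8 FPKM after dexamethasone. Every dexamethasone library was above every untreated one. The level rose 1.70-fold (limma log2 fold change 0.76, SE 0.123, adjusted p = 0.00157), and the call held in all 19 other fits.

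FOS (ENSG00000170345, chromosome 14, 75278774 to 75282230, plus strand), the classical serum-induced partner of JUN, was low in all libraries. It was at 0.765, 1.10, 0.820 and 1.51 FPKM without dexamethasone (replicates 1, 3, 4 and 5) and at 3.62, 4.02, 3.37 and 4.09 FPKM after dexamethasone. The lowest dexamethasone library was above the highest untreated one, which was replicate 5. On scaled values the level rose 3.50-fold (limma log2 fold change 1.23, understated at so low a level, SE 0.171, adjusted p = 0.000664). With a pseudocount of 0.1 in place of 1 the log2 fold change was 1.80, and the call held in all 19 other fits.

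FOSB (ENSG00000125740, chromosome 19, 45467995 to 45475179, plus strand), which encodes a full-length activator and a truncated form known from long-lasting stimulation, was near the floor. It was at 0.269, 0.181, 0.153 and 0.134 FPKM without dexamethasone (replicates 1, 3, 4 and 5) and at 0.105, 0.237, 0.1496 and 0.153 FPKM after dexamethasone. The groups overlapped, and no library reached the 0.5 FPKM needed for the test. Without the filter limma gave a log2 fold change of -0.03 with an SE of 0.0431 (adjusted p = 0.719), on a scale where a pseudocount of 1 outweighs such values.

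The promoter windows of FOS and FOSL2 are shown because these were the FOS family genes that rose. RefSeq windows (GRCh38.p14) run from 250 bases before to 50 bases after the start, and 8 of the 10 genes were matched. FOSL1 and IER3 were not. The start is that of RefSeq and can differ from the end of the locus printed here. The windows of FOSL2, JUN and JUND lie wholly inside the printed loci, so their motif positions refer to a start within the locus. Capitals mark matches on either strand to a CRE half-site (TGACGT), an AP-1 site (TGANTCA) or a TATA box (TATAAA).
FOS promoter (chr14:75278578-75278877, plus strand): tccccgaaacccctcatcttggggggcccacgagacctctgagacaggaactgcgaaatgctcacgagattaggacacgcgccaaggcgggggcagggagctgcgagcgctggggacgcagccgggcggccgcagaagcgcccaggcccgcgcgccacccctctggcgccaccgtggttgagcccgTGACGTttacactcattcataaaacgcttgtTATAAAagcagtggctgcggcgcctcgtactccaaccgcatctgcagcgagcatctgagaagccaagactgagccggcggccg
FOSL2 promoter (chr2:28392608-28392907, plus strand): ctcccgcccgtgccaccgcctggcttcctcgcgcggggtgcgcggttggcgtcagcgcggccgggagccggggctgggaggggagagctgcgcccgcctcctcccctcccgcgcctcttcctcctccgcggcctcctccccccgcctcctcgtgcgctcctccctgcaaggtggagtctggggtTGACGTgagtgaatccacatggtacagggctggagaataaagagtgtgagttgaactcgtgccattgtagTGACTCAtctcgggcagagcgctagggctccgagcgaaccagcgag
FOS held TGACGT beginning 64 bases before the start and TATAAA beginning 33 bases before it. FOSL2 held TGACGT beginning 66 bases before the start and an AP-1 site just after it, and no TATAAA. Of 35116 such windows, 7.98% held TGACGT, 7.71% TGANTCA and 11.5% TATAAA. The full palindromic glucocorticoid receptor site was found in none of the 8 windows and in 0.00285% of all of them. The half-site AGAACA was found in 14.8% of all windows and, among the 8, in that of FOSB. The NF-kB motif, held by 1.61% of all windows, was likewise in none of the 8. A match describes the letters in this window and shows no binding.

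The balance within the FOS family changed with these opposite shifts. FOSL1 made up 38.7% ± 2.12 of the summed FOS family FPKM in untreated cells and 9.29% ± 0.945 after dexamethasone (SD, n = 4 each). FOSL2 made up 59.5% ± 2.23 and 86.0% ± 0.934, and FOS 1.49% ± 0.542 and 4.53% ± 0.268 (SD, n = 4 each). The shares of all these genes lay apart between the groups, with FOSL1 at 35.6% to 40.0% in untreated and 8.08% to 10.1% in dexamethasone libraries. These shares do not depend on the scaling between libraries and were not tested, since the genes were chosen together. The family sum was 70.9 ± 3.13 FPKM before and 83.3 ± 2.96 FPKM after treatment (SD, n = 4 each). After scaling the sums overlapped, at 66.1 to 81.1 and 78.0 to 92.4.

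**Figure D3:**
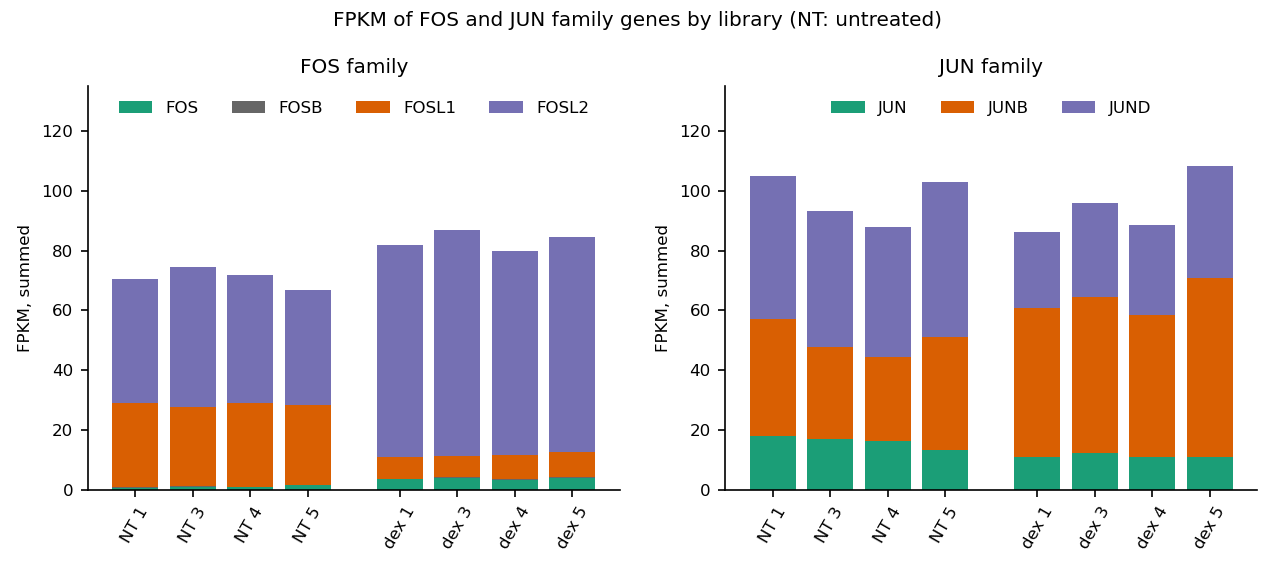
Summed FPKM (y axis, from 0) of the FOS family, left, and the JUN family, right, as stacked bars for each untreated (NT) and dexamethasone (dex) library with its replicate number. The FOSL1 segment shrinks from 38.7% to 9.29% of its family on average, and the JUNB segment grows from 34.8% to 55.3% of its family. FOSB is too low to be seen.

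The JUN family supplies the obligate AP-1 partners, and its members also moved in opposite directions. JUNB (ENSG00000171223, chromosome 19, 12791496 to 12793315, plus strand), a weaker activator than JUN that can oppose it, was at 39.3, 30.9, 28.1 and 37.8 FPKM without dexamethasone (replicates 1, 3, 4 and 5). After dexamethasone it was at 50.0, 52.2, 47.4 and 60.02 FPKM. All dexamethasone libraries were higher. The level rose 1.53-fold (limma log2 fold change 0.62, SE 0.201, adjusted p = 0.0463), close to the threshold. With a library left out the call held in 1 of 8 fits, that without untreated replicate 5 (0.76). In the other 7, each without one of untreated replicates 1, 3 and 4 or any dexamethasone library, the log2 fold change was 0.50 to 0.68 with adjusted p-values of 0.0681 to 0.108. It was also lost with no filter on low values (adjusted p = 0.0640), and held without both libraries numbered 5 (0.65, adjusted p = 0.00668). In all, 11 of 19 other fits held the call, among them that with the GC trend removed (0.91, limma adjusted p = 0.000139).

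JUND (ENSG00000130522, chromosome 19, 18279607 to 18283950, minus strand), which is expressed constitutively in most cells and is linked to slow growth, was at 47.9, 45.4, 43.5 and 51.7 FPKM without dexamethasone (replicates 1, 3, 4 and 5). After dexamethasone it was at 25.4, 31.3, 30.3 and 37.3 FPKM. The deposited values did not overlap, but after scaling those of untreated and dexamethasone cells did, since untreated replicate 4 was at 40.1 and dexamethasone replicate 5 at 40.8. The level fell 1.52-fold (limma log2 fold change -0.59, SE 0.193, adjusted p = 0.0492). With a library left out the call held in 1 of 8 fits, that without dexamethasone replicate 5 (-0.72). In the other 7, without any untreated library or dexamethasone replicate 1, 3 or 4, the log2 fold change was -0.66 to -0.46 with adjusted p-values of 0.0530 to 0.139. JUND transcripts are 69.9% G or C, and with the trend on gene GC content removed the log2 fold change was -0.25 (adjusted p = 0.0483).

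JUN (ENSG00000177606, chromosome 1, 58780788 to 58784327, minus strand), the strongest activator of its family and a target of JNK kinases, was the lowest of the JUN family genes. It was at 17.8, 16.9, 16.3 and 13.3 FPKM without dexamethasone (replicates 1, 3, 4 and 5) and at 10.97, 12.37, 10.95 and 10.94 FPKM after dexamethasone. The groups did not overlap, though untreated replicate 5 came within 1 FPKM of dexamethasone replicate 3. The level fell 1.41-fold (limma log2 fold change -0.46, SE 0.113, adjusted p = 0.0139). The call was lost without untreated replicate 1 (-0.43, adjusted p = 0.0504), without dexamethasone replicate 4 (-0.43, adjusted p = 0.0534) and with the GC trend removed (-0.25, adjusted p = 0.124).

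The sum of the JUN family changed less than its makeup. JUNB made up 34.8% ± 2.66 of the summed FPKM in untreated and 55.3% ± 1.92 in dexamethasone cells, JUND 48.5% ± 2.03 and 32.7% ± 2.33, and JUN 16.6% ± 2.53 and 12.0% ± 1.30 (SD, n = 4 each). JUND was thus the most abundant JUN family transcript before treatment and JUNB after it, in 4 of 4 libraries each. The sums were 97.2 ± 8.10 and 94.8 ± 9.88 FPKM (SD, n = 4 each) and overlapped.

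The promoter windows of all 3 JUN family genes are shown because their RNAs moved in opposite directions. Capitals mark a CRE-like site (TGACNTCA), the CRE half-site TGACGT, which that site can contain, a MEF2 site or TATAAA.
JUNB promoter (chr19:12791236-12791535, plus strand): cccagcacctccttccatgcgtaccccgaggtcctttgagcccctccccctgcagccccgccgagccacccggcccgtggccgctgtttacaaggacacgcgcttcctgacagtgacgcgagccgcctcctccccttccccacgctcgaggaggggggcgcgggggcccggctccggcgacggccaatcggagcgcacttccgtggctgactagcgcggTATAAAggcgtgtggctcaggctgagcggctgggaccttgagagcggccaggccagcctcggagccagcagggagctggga
JUN promoter (chr1:58783998-58784297, minus strand): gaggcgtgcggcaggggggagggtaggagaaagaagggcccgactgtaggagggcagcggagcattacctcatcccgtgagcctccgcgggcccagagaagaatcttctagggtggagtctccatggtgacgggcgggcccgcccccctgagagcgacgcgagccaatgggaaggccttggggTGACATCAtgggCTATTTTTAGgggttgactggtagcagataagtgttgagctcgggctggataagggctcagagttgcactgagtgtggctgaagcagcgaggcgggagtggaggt
JUND promoter (chr19:18281573-18281872, minus strand): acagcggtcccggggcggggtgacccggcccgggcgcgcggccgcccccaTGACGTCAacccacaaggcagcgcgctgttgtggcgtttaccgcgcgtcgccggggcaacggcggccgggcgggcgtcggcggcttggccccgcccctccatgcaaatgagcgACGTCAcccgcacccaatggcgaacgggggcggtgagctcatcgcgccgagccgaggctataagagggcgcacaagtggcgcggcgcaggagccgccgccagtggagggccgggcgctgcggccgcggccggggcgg
JUNB, which rose, held TATAAA beginning 31 bases before the start and none of the AP-1 or CRE motifs searched. JUN held a CRE-like site beginning 67 bases before the start and a MEF2 site beginning 55 bases before it. JUND held a CRE-like site beginning 200 bases before the start and a further half-site beginning 87 bases before it. CRE-like sites were found in 7.72% and MEF2 sites in 2.99% of all 35116 windows.

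The immediate early genes outside AP-1 differed widely in level. IER3 (IEX-1, ENSG00000137331, chromosome 6, 30743199 to 30744554, minus strand), a target of NF-kB and growth signals that affects cell survival, was at 75.0, 25.7, 64.5 and 90.6 FPKM without dexamethasone (replicates 1, 3, 4 and 5). After dexamethasone it was at 8.40, 4.95, 3.95 and 15.2 FPKM. Replicate 3 was far below the other untreated libraries and replicate 5 was the highest in each group, yet the groups did not overlap. The level fell 7.94-fold (limma log2 fold change -2.84, SE 0.501, adjusted p = 0.00265). On deposited values the coefficient of variation was 43.2% in untreated and 62.7% in dexamethasone cells, larger than that of 87.8% and 98.9% of tested genes. The call held in all 19 other fits, with log2 fold changes of -3.26 to -2.55.

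IER2 (ENSG00000160888, chromosome 19, 13150415 to 13154908, plus strand), a serum-induced nuclear protein gene, was at 28.3, 30.4, 28.2 and 12.9 FPKM without dexamethasone (replicates 1, 3, 4 and 5). After dexamethasone it was at 9.88, 10.9, 9.24 and 11.9 FPKM. Untreated replicate 5 lay close to the dexamethasone libraries and just above the highest of them. The level fell 2.29-fold (limma log2 fold change -1.10, SE 0.199, adjusted p = 0.00303). The log2 fold change was -1.40 without both libraries numbered 5. With the GC trend removed it was -0.83, nearer the threshold (limma adjusted p = 0.0392). The call held in all 19 other fits.

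EGR1 (ENSG00000120738, chromosome 5, 138465490 to 138469315, plus strand), a zinc finger factor induced through ERK and SRF, was low in both groups. It was at 0.426, 0.439, 0.475 and 0.419 FPKM without dexamethasone (replicates 1, 3, 4 and 5) and at 0.436, 0.481, 0.337 and 0.369 FPKM after dexamethasone. The groups overlapped, and the gene was below the filter. From its transcript length and the estimated depth these values stand for about 27.9 to 40.2 fragments per library. This is a rough guide, since the estimates are not whole numbers and counts could not be recovered. Without the filter limma gave a log2 fold change of -0.04 with an SE of 0.0432 (adjusted p = 0.610). The EGR1 promoter is shown because CArG boxes, the sites of SRF, lie in it although the transcript was low; capitals mark these and CRE half-sites.
EGR1 promoter (chr5:138465229-138465528, plus strand): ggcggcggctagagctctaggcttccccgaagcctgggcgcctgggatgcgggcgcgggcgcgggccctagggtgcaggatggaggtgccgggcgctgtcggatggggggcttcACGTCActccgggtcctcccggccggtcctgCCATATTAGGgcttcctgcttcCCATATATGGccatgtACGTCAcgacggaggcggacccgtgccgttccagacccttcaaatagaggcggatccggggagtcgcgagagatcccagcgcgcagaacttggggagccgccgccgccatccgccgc
It held 2 CArG boxes, beginning 105 and 83 bases before the start, and 2 CRE half-sites. CArG boxes were found in 1.29% of all windows and in none of the windows of the other 7 matched genes. Sites outside these windows were not searched.

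Ordered by level, the untreated cells had IER3, JUND, FOSL2, JUNB, FOSL1, IER2, JUN, FOS, EGR1 and FOSB, with mean values from 63.9 down to 0.184 FPKM. From IER3 to JUN each gene overlapped the next in its range over libraries, and FOS, EGR1 and FOSB lay apart from their neighbours. After dexamethasone the order was FOSL2, JUNB, JUND, JUN, IER2, IER3, FOSL1, FOS, EGR1 and FOSB, from 71.6 down to 0.161 FPKM. FOSL2, JUNB and JUND were then apart from one another, and JUN, IER2, IER3 and FOSL1 overlapped in turn. FOSL1 moved from the fifth to the seventh place and FOSL2 from the third to the first.

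For each tested member the gene with the most similar profile was sought, by the smallest root mean square difference between centred log2 profiles over the 8 libraries. The nearest gene to FOS was DUSP1, a MAP kinase phosphatase and known glucocorticoid target, at a difference of 0.0864. DUSP1 rose from 114 ± 13.3 to 274 ± 21.4 FPKM (SD, n = 4 each), with a log2 fold change of 1.26 (limma adjusted p = 0.00126). The likeness holds on the log2(FPKM + 1) scale, which compresses the low values of FOS: the scaled FPKM rose 3.50-fold for FOS and 2.37-fold for DUSP1. The nearest to FOSL1 was KIF18B, a mitotic kinesin, at 0.0537, which fell from 31.6 ± 0.460 to 9.50 ± 0.711 FPKM (SD, n = 4 each, limma adjusted p = 2.78e-05). The nearest to JUN was FZD7, a Wnt receptor, at 0.0258, and that to JUND was SF1, a splicing factor, at 0.0484. FOSL2 was nearest to LPIN3 (0.0615) and JUNB to GSTK1 (0.0966). IER2 was nearest to SFRP1, a secreted Wnt antagonist, at 0.137, and SFRP1 was likewise low in untreated replicate 5, at 8.99 FPKM against 18.3 to 20.2 FPKM in the others. IER3 had no close match, the nearest being the histone gene HIST1H2AB at 0.584, whose value is uncertain because histone genes share sequence. No member was the nearest profile of another: the nearest fellow member ranked 89th for IER3 and 2035th for JUN.

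The other genes of the pathway were taken from lists by role. These were written with earlier results of these data known, so their shares called are no independent result. Over all tested genes 26.7% were called. Among 12 other basic leucine zipper partners of AP-1, 9 were tested, of which 4 fell and none rose (44.4% called), with a median log2 fold change of -0.31. MAFK, a small MAF protein that lacks an activation domain, fell from 24.4 ± 2.26 to 9.34 ± 0.856 FPKM (SD, n = 4 each) (limma log2 fold change -1.29, SE 0.164, adjusted p = 0.000384). ATF3, a stress-induced factor, was at 1.15 to 1.90 FPKM in untreated and 0.558 to 0.842 FPKM in dexamethasone libraries (log2 fold change -0.60, limma adjusted p = 0.00268). BATF3, a partner of JUN proteins, fell from 6.43 ± 1.41 to 2.56 ± 0.276 FPKM (SD, n = 4 each, limma adjusted p = 0.00480). BATF2 was the remaining call, at a limma adjusted p of 0.0460, and lost it in 9 of 19 other fits, among them those without untreated replicate 3, 4 or 5 or dexamethasone replicate 1, 3 or 4. BATF was listed at 0 in all libraries.

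Of 38 other immediate early genes, 31 were tested, and 10 rose, 10 fell and 11 were not called. The share called was 64.5%, against 26.7% of all tested genes, and the median log2 fold change was 0.03. ZFP36 (tristetraprolin), which binds AU-rich elements and destabilises short-lived mRNAs including that of FOS, was at 11.6 to 13.1 FPKM in untreated and 58.4 to 60.5 FPKM in dexamethasone libraries (log2 fold change 2.21, SE 0.123, limma adjusted p = 2.31e-06). IER5 was at 25.0 to 27.3 FPKM in untreated and at 9.14 to 10.8 FPKM in dexamethasone libraries (log2 fold change -1.27, limma adjusted p = 7.94e-05). HBEGF, a ligand of the EGF receptor, was at 1.58 to 2.27 FPKM and 0.476 to 0.842 FPKM (log2 fold change -0.84, limma adjusted p = 0.000164). The genes too low to test were EGR2, EGR3, EGR4, NR4A3, ARC, NPAS4 and DUSP2, so all 4 EGR genes lay under the filter.

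Few of the regulators upstream of these genes were called. Of 21 kinases and transcription factors that act on immediate early promoters, all were tested, 1 rose, 1 fell and 19 were not called. The share called was 9.52%, against 26.7% of all tested genes, and the median log2 fold change was -0.01. ELK3, an ETS factor that joins SRF on CArG boxes, rose from 5.53 ± 2.04 to 16.6 ± 6.48 FPKM (SD, n = 4 each, log2 fold change 1.41, limma adjusted p = 0.00863). Its groups overlapped, with dexamethasone replicate 5 at 6.95 FPKM and untreated replicate 3 at 7.21 FPKM. RPS6KA5 (MSK1), a kinase downstream of ERK and p38, was at 0.935 to 1.67 FPKM and 0.162 to 0.761 FPKM (log2 fold change -0.49, limma adjusted p = 0.0403), and lost its call in 8 of 19 other fits, among them those without untreated replicate 1 or 3 or dexamethasone replicate 1, 3 or 4. MAPK14, the p38 kinase gene, was at 10.2 ± 1.91 and 12.6 ± 1.08 FPKM (SD, n = 4 each, limma adjusted p = 0.0785). SRF itself was not called (limma adjusted p = 0.228).

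Among 12 genes that act on the stability of AP-1 proteins or their mRNAs, 3 rose and none fell (median log2 fold change 0.15). The share called was 25.0%, near the 26.7% of all tested genes. ZFP36, described above, led them, followed by its relative ZFP36L2, which was at 10.2 to 15.6 FPKM in untreated and 19.3 to 23.9 FPKM in dexamethasone libraries (limma adjusted p = 0.00182). NEDD4, a ubiquitin ligase, was at 3.01 to 13.9 FPKM and 19.4 to 39.7 FPKM (log2 fold change 1.62, limma adjusted p = 0.00574), with replicate 5 the lowest in each group. FBXW7 and COP1, ubiquitin ligase components that act on JUN, were not called (limma adjusted p = 0.945 and 0.778).

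Genes reported as AP-1 targets were mostly lower. Of 26 listed, 25 were found, 20 were tested, 13 fell and 2 rose, with a median log2 fold change of -0.85. The share called was 75.0%, against 26.7% of all tested genes, in a list written with earlier results of these data known. AREG, an EGF receptor ligand, was at 19.4 to 29.8 FPKM in untreated and 6.86 to 9.73 FPKM in dexamethasone libraries (log2 fold change -1.48, limma adjusted p = 2.34e-05). IL11 and CCL2, secreted inflammatory mediators, were the others with the smallest p, with log2 fold changes of -3.31 and -2.15 (limma adjusted p = 1.37e-06 and 2.66e-05). IL11 was at 10.9 to 14.8 FPKM in untreated and 0.307 to 0.481 FPKM in dexamethasone libraries, so it passed the filter through the untreated libraries alone. Its log2 fold change is understated at so low a level: the scaled ratio of dexamethasone over untreated was 0.0305. LAMB3, a laminin chain named after its values were seen, rose from 6.43 ± 0.534 to 15.4 ± 1.47 FPKM (SD, n = 4 each, limma adjusted p = 0.000445). The matrix metalloproteinase genes MMP1, MMP9, MMP10 and MMP13 were at 0.180 FPKM or less in every library. Many of these genes are also known targets of NF-kB and of the glucocorticoid receptor, and their dependence on AP-1 was not tested.

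Heat-shock genes, which also respond to disturbance of cells, were counted alongside because immediate early genes are sensitive to handling. Of 11 tested, 2 rose, 1 fell and 8 were not called (median log2 fold change 0.11). The share called was 27.3%, again near the 26.7% of all tested genes. HSPA1B fell from 162 ± 7.27 to 95.2 ± 11.02 FPKM (SD, n = 4 each, log2 fold change -0.76, limma adjusted p = 0.00993), although it is nearly identical to HSPA1A and can share its reads. BAG3 was at 46.5 ± 1.32 and 68.7 ± 4.87 FPKM and HSPB1 at 340 ± 75.1 and 645 ± 106 FPKM (SD, n = 4 each, limma adjusted p = 0.0194 and 0.0252), and both calls were lost without any one of untreated replicates 1, 3 and 4 or dexamethasone replicates 3 and 4. The part of handling in the changes of the AP-1 and immediate early genes was not tested.

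**Figure D4:**
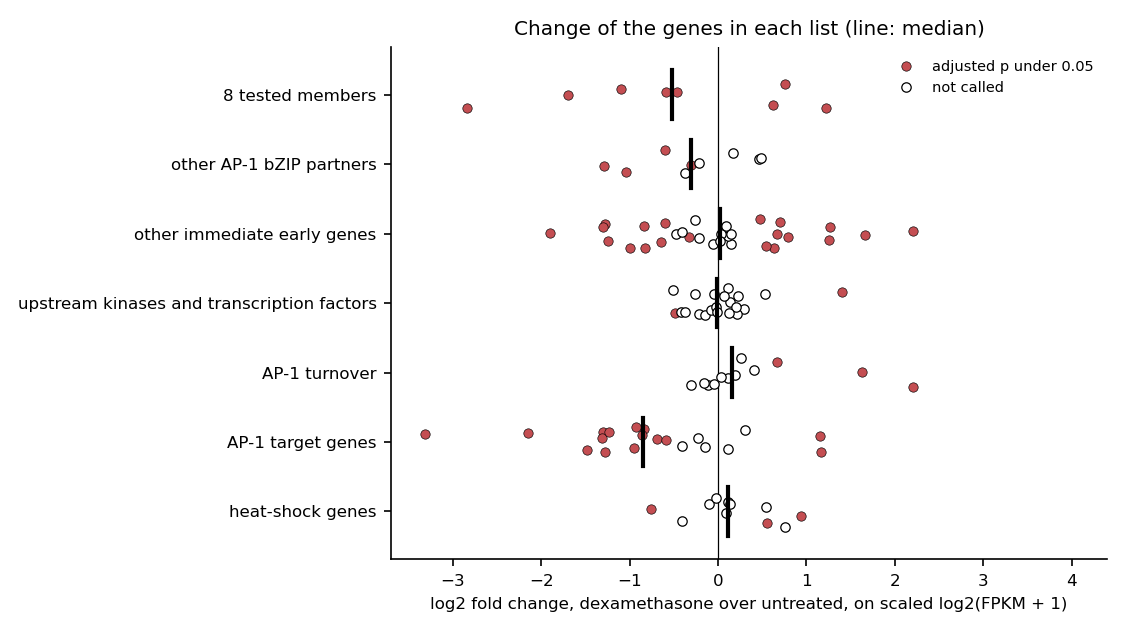
Log2 fold change (x axis, dexamethasone over untreated) of each tested gene in the 7 lists (y axis), filled where the limma adjusted p was under 0.05 and open otherwise, with the median as a line. The AP-1 target genes have a median of -0.85 and the other immediate early genes one of 0.03, with 10 called on each side.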

How the data were processed

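Total RNA from 8 wells was depleted of ribosomal RNA, primed with random hexamers and sequenced as read pairs, per the labels' protocols. Per the submitters' processing notes the authors used FastQC 0.11.9, Cutadapt 3.4, STAR 2.7.9a on GRCh38, featureCounts of Subread 2.0.3 and DESeq2 1.32.0; which annotation was counted, and whether by strand, is not given in the sources used here. The deposited values are described as counts but are not whole numbers. They were read as FPKM from the values, and the authors' step from counts to FPKM is not given in the sources used here. Of low values of genes with 1 transcript, 40.6% to 46.4% per library were within 0.1 of whole fragments at the best estimate of depth. At a depth fixed beforehand, 20% would by chance. The depth was chosen to maximise this share, so the chance level here is above 20% and was not estimated. Counts could thus not be recovered, and tests for counts were left out.

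Between libraries, scaling used trimmed means of log ratios (trimming 0.3 of ratios and 0.05 of levels on each side) with factors of 0.825 to 1.09, and log2(FPKM + 1) was fitted with limma 3.58.1 in R 4.3.3 (two-sided tests, trended and robust prior, a model holding the treatment alone). With a library left out the filter asked for 3 libraries. The procedure was tested on simulated data. Fits with other pseudocounts, filters, scalings, priors, a GC correction, a replicate block and libraries left out were compared. GC content and overlaps came from GENCODE v44, matched by gene identifier for 19065 genes. Coordinates are GRCh38 as deposited. CCN1 and CCN2 were matched by identifier, and MMP3 was not analysed here.

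Named genes were the 10 members, the 3 genes with the smallest p in each list, the nearest profile of each member and FKBP5. BATF2, SRF, FBXW7, COP1 and LAMB3 were chosen after their values were seen, and 1 gene of the target list is not reported here by name. The members and lists were chosen with earlier results of these data known, and the lists were written from general knowledge. FOSB overlaps ERCC1 and JUNB overlaps HOOK2 on the opposite strand, and FOSL2, IER2 and IER3 overlap non-coding genes, so part of their values could come from those genes.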

Additional observations from a re-analysis of the deposited data

Results flagged for a closer look

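For each of the 10 genes and both treatments, the gap between an extreme library and its nearest neighbour was divided by the range over the 4 libraries. Chance alone sets apart about 1 group in 20, and here 2 of 20 had such a library. JUN in dexamethasone replicate 3 was at 12.37 FPKM, while the other dexamethasone libraries lay between 10.94 and 10.97 FPKM. IER2 in untreated replicate 5 was at 12.9 FPKM, while the other untreated libraries lay between 28.2 and 30.4 FPKM.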

How the results depend on the processing

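In 19 other fits no tested member changed direction, and FOS, FOSL1, FOSL2, IER2 and IER3 were called in all of them. JUN lost its call in 3, JUNB in 8 and JUND in 10. Called members numbered 5 to 7 when 1 library was left out and 8 without both libraries numbered 5. Called genes numbered 3245 of all tested, 2307 to 3851 with 1 library left out, 5512 without both libraries numbered 5 and 5765 with a replicate block. The replicate numbers were not taken as pairs, although the values cannot decide whether they mark pairs. Deviations of same-numbered libraries from their group means correlated at 0.292, 0.067, 0.315 and 0.713 for numbers 1, 3, 4 and 5 across genes. Untreated replicates 3 and 4 correlated better with dexamethasone replicate 1. Untreated replicate 5 went against the other dexamethasone libraries, at -0.572, -0.066 and -0.396 for numbers 1, 3 and 4. Such opposite deviations bear on the other correlations, since each group was centred on its own mean. With the replicate block 8 members were called. EGR1 and FOSB were left out of the test by the filter of 0.5 FPKM.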
